A study of Homo sapiens with 19 samples.

Results

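In OCI-LY10, an established human line of diffuse large B-cell lymphoma of the activated B-cell-like kind, the RNA of cells carrying the EGR1 hairpin numbered 9 was compared with that of cells carrying a control hairpin. The libraries are labelled shEGR1#9 and control shRNA, with 3 in each group. In both groups doxycycline, at 20 ng/ml and for 2 days, switched the hairpin on, so the drug and a hairpin are common to both. Of 25365 genes in the table of this line, 10466 had at least 1 FPKM (sequenced fragments scaled to gene length and library size) in at least 3 of the 6 libraries, and these were tested. The line also has 3 libraries of hairpin 8, and the TMD8 and SUDHL2 lines, of the same kind, have 1 library for each hairpin. The series holds 15 RNA libraries among 19 samples, and the chromatin samples were not analysed here.

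EGR1 is a zinc finger transcription factor of the immediate early class, made within minutes of antigen receptor or growth factor signals and held in check by the NAB corepressors, which it induces. Lymphomas of this subtype depend on chronic B-cell receptor and MYD88 signals that reach NF-kB. MYD88 signalling can also lead to type I interferon, whose receptor activates a complex that holds IRF9. That complex binds the interferon-stimulated response element, a short promoter sequence, and turns on antiviral genes.

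The targeted gene was looked at first. EGR1 read 8.57, 9.59 and 12.3 FPKM in control replicates 1 to 3 and 10.8, 11.8 and 22.7 FPKM in the hairpin 9 libraries. The groups overlapped, and the highest value of all 6 was in hairpin 9 replicate 3. The difference on the log2(FPKM + 1) scale was 0.47 with a standard error of 0.269 (limma, adjusted p = 0.28), and it lay between 0.16 and 0.66 when each library was left out in turn. No fall of EGR1 RNA was measured in the libraries labelled shEGR1#9, so every direction below is drawn between labels and not between measured levels of EGR1. The hairpin 8 libraries read 10, 11.4 and 20.5 FPKM. EGR1 protein was not measured in these data.

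The B-cell identity of the line was checked on 9 measured defining markers, whose summed level was 2540 to 2758 FPKM in the control and 2805 to 2929 FPKM in the hairpin 9 libraries. CD79A alone averaged 591 and 916 FPKM. The median change of the list was −0.10, with 1 marker wholly above and 3 wholly below the controls. Of all genes tested, 21.8% lay wholly above and 15.2% wholly below. CD79B, a chain of the B-cell receptor, stood at 936 to 1083 FPKM over all 6 libraries. Of 14 myeloid markers 11 were at 0 in all 6 libraries, of 14 fibroblast and epithelial markers 7, and of 12 erythroid and endothelial markers 8. Of 21 T-cell and natural killer genes 13 were at 0, and CD3E, the defining T-cell chain, was at most 0.118 FPKM. The summed FPKM of a library was 433354 to 445028, and 10319 to 10490 genes reached 1 FPKM. Whether replicates are separate cultures is not stated in the labels, and the p-values below therefore cover only library-to-library spread, which may be technical.

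The list with the most risers was the interferon response. Of 48 listed genes 41 passed the filter on low values, and of these 32 rose, 0 fell and 9 did not pass the test, at a limma adjusted p under 0.05. Among all 10466 genes tested, 7.39% rose and 3.95% fell. The median change of the list was 0.59 on the log2(FPKM + 1) scale, against 0.02 over all genes tested. When each library was left out in turn, 28 to 32 of the 41 were called higher. The members were IFIT and IFI genes, OAS enzymes, the ISG15 conjugation genes and others, and their changes ran from −0.15 to 1.74.

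Promoters of 4 of the largest risers of this list are shown, because the core of the interferon-stimulated response element lay in each. They are the 250 bases before the annotated start, from RefSeq on GRCh38.p14, written 5′ to 3′ on the strand of the gene. Capitals mark every match to the core on either strand (GAAA, a pair of bases of any kind, then GAAA; on the opposite strand TTTC, a pair of any kind, then TTTC), and matches that overlap run together.
IFI6, chr1:27672193-27672442, minus strand: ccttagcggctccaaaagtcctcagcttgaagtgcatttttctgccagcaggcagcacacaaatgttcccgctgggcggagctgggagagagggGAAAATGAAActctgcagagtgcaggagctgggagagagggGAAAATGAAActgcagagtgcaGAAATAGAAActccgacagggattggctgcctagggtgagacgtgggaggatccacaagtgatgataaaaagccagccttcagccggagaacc
IFIT1, chr10:89392373-89392622, plus strand: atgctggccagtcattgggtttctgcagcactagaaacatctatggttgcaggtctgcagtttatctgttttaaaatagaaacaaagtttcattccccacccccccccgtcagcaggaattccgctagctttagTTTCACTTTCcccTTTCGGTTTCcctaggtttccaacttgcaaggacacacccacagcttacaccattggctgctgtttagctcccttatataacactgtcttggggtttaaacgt
IFIT3, chr10:89327747-89327996, plus strand: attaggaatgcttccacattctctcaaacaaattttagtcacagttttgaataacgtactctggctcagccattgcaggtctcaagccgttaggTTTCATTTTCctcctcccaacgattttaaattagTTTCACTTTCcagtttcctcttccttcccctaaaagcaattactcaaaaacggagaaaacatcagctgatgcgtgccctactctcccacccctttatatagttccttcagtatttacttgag
ISG15, chr1:1013247-1013496, plus strand: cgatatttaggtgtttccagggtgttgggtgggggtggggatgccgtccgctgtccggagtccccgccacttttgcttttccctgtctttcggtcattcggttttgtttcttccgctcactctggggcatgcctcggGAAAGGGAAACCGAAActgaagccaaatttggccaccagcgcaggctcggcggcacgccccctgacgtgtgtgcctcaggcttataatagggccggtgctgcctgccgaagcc
The IFI6 promoter held 3 matches, with first bases 156, 115 and 93 bases before the start. The other 3 promoters held 2 each, and in ISG15 they overlapped.

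A promoter was at hand for 26 of the 32 interferon risers, and 17 of these (65.4%) held the core. Of the 9 list members that did not pass the test 7 had a promoter, and 3 of these (42.9%) held it too. It was present in 192 of 7748 promoters (2.48%) of all tested genes, in 15 of 545 (2.75%) of the risers outside the list, and in 6 of 312 (1.92%) of the genes that fell. A core of the EGR binding motif, GCGNGGGCG on either strand, was in 76 of 571 promoters of risers (13.3%), in 43 of 312 of fallers (13.8%) and in 1030 of 7748 of all tested genes (13.3%). Among 11 risers of the immediate early list with a promoter it was in 3. The motif shares are descriptions of these windows, and binding was not measured here.

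IFI6, a mitochondrial interferon-induced protein, read 20.4, 20.9 and 21.7 FPKM in the controls and 74.1, 59.5 and 85.9 FPKM in the hairpin 9 libraries. IFIT1, which binds foreign RNA ends, read 2.33, 2.64 and 2.28 FPKM against 10.3, 9.78 and 9.34 FPKM. In both genes the groups did not overlap, as was so for 37% of all genes tested and for all 1186 called genes. IFI6 rose by 1.74 (SE 0.123, limma adjusted p = 0.000804) and IFIT1 by 1.66 (SE 0.0642, adjusted p = 0.00026). ISG15, a ubiquitin-like modifier, was higher in absolute terms, at 60.1, 76.1 and 47.8 FPKM in the controls and 132, 165 and 139 FPKM with hairpin 9, a rise of 1.25. USP18, the enzyme that removes ISG15 and damps interferon receptor signalling, went from 4.6 ± 0.4 to 11.7 ± 0.492 FPKM (SD, n = 3). IFIT3 rose by 1.32, OASL, an inactive relative of the oligoadenylate synthetases, by 1.15 and MX1, a dynamin-like antiviral GTPase, by 0.91. All of these kept their call when any single library was left out.

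Factors that drive these genes rose in part. Of 27 tested sensors and factors of the interferon system 9 rose and 1 fell, where 7.39% and 3.95% of all genes did. The median change was 0.11, and 6 to 8 rose when 1 library was left out. The 1 that fell, IRF8 by 0.18, was not called whichever library was left out. IRF7, which amplifies type I interferon, read 5.05, 5.42 and 3.71 FPKM in the controls and 12.4, 13.3 and 14.4 FPKM with hairpin 9, a rise of 1.34. All 3 hairpin 9 libraries lay above all 3 controls, as in every called riser. IRF9 rose by 0.67, ZBP1, a sensor of Z-form nucleic acid, by 0.78, and IFIH1, a sensor of long double-stranded RNA, by 0.56. Among 14 tested genes of the RNA interference machinery 1 rose and 0 fell, again beside 7.39% and 3.95% of all genes. Their median was 0.00. DICER1 read 5.65 to 6.61 FPKM in the controls and 5.87 to 6.35 FPKM with hairpin 9. The 1 call, TARBP2, which binds DICER1, was lost whichever of the 6 libraries was left out (limma adjusted p 0.0533 to 0.127).

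Genes of antigen presentation by MHC class II rose in part. Of 10 tested members 7 rose and 0 fell, where 7.39% and 3.95% of all genes did. The median was 0.75, and 5 to 7 were called when 1 library was left out. CD74, the invariant chain, was among the most abundant risers, at 764, 689 and 661 FPKM in the controls and 1153, 1296 and 1391 FPKM with hairpin 9, a rise of 0.86 (limma adjusted p = 0.00317). HLA-DRA went from 22.1 ± 1.02 to 43.7 ± 3.84 FPKM and HLA-DQA1 from 18.5 ± 0.194 to 36.7 ± 1.56 FPKM (SD, n = 3 each). CIITA, the master coactivator of these genes, rose by 0.53, but that call was lost without control replicate 1 or 3 or hairpin 9 replicate 2 or 3 (adjusted p 0.0553 to 0.0682). HLA-DRB1 rose by 1.19, and its call was lost without hairpin 9 replicate 2 (adjusted p = 0.0512). HLA genes have near-identical copies, so single HLA values are uncertain. Of 13 tested class I genes 1 rose, B2M by 0.27, where 7.39% of all genes rose. The B2M call was lost whichever library was left out (adjusted p 0.0536 to 0.0947). It was also lost with a replicate block (0.101), no filter on low values (0.0638), quantile normalization (0.0598) and all 9 libraries fitted (0.129).

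Immediate early genes other than EGR1 rose in part. Of 28 tested members 13 rose and 1 fell, where 7.39% and 3.95% of all genes did. The median was 0.41, and 9 to 13 rose when 1 library was left out. The 1 that fell, KLF10 by 0.26, was not called whichever library was left out. CCL3, a chemokine induced through the B-cell receptor, read 3.17, 3.07 and 3.36 FPKM in the controls and 7.34, 8.3 and 9.23 FPKM with hairpin 9. Its neighbour CCL4 went from 3.36 ± 0.166 to 6.7 ± 0.398 FPKM (SD, n = 3). ZFP36, which destabilises cytokine messages, rose by 0.85, the MAP kinase phosphatase DUSP2 by 0.78 and the AP-1 factor JUND by 0.71, though JUND was not called when all 9 OCI-LY10 libraries were fitted (limma adjusted p = 0.587). NAB2, the corepressor that EGR1 induces, read 10.1, 9.75 and 9.54 FPKM against 15.1, 14.6 and 17.5 FPKM, a rise of 0.63 (limma adjusted p = 0.00493). The EGR1 paralog EGR2 rose by 0.63, and leaving out any of the 3 controls or hairpin 9 replicate 2 ended the call (adjusted p 0.067 to 0.0864), as did fitting all 9 OCI-LY10 libraries (0.114) or no filter on low values (0.0579). EGR3 changed by 0.30 and did not pass the test (adjusted p = 0.0664). MYC stood at 88.2 to 91.4 FPKM in the controls and 82.9 to 99.9 FPKM with hairpin 9, a difference of 0.00.

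**Figure D1:**
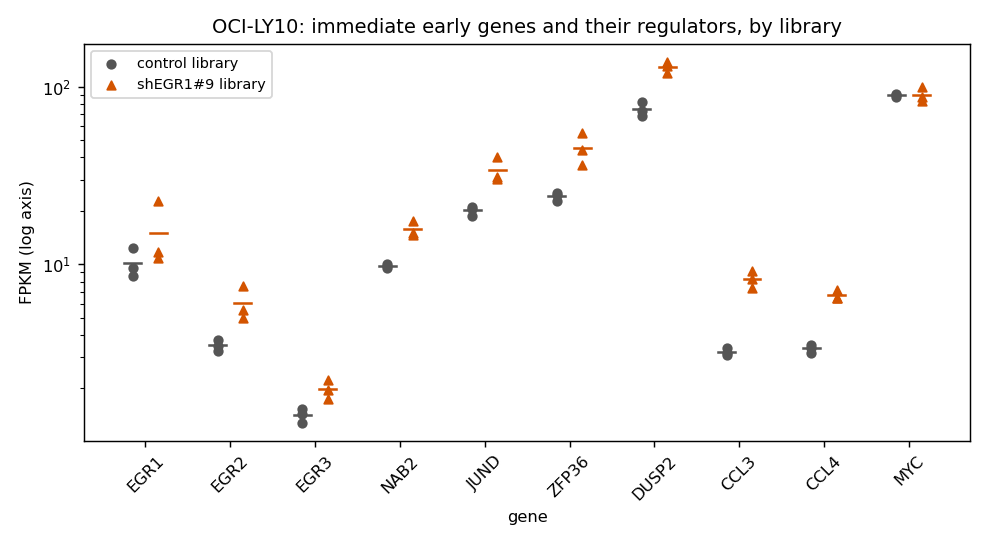
FPKM on a log axis of 10 immediate early genes in each of the 6 OCI-LY10 libraries, with bars at group means. The hairpin 9 libraries of EGR1 (10.8 to 22.7 FPKM) overlap the controls (8.57 to 12.3 FPKM), those of NAB2 (14.6 to 17.5 FPKM) lie above the controls (9.54 to 10.1 FPKM), and MYC overlaps.

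Chemokines, cytokines and their receptors held several of the largest changes of single genes. Of 32 tested members 15 rose and 3 fell, where 7.39% and 3.95% of all genes did. The median was 0.25, and 9 to 12 rose when 1 library was left out. CCL3 and CCL4 are counted here and among the immediate early genes, and CCR7 here and among the NF-kB genes. The count was 9 without hairpin 9 replicate 2, and whichever library was left out, 1 fell rather than 3 (S1PR1, CXCR4 and IL10RB with all 6). IL4I1, a secreted amino acid oxidase that dampens T cells, read 4.16, 4.15 and 3.33 FPKM in the controls and 12.2, 14.6 and 15.4 FPKM with hairpin 9, a rise of 1.62 (SE 0.106, limma adjusted p = 0.000688). SEMA7A, a membrane-anchored semaphorin, read 12.1, 11.3 and 16 FPKM against 39.9, 31.1 and 32.7 FPKM, a rise of 1.34. The groups did not overlap in either gene, as in every called gene. IL2RG, the common cytokine receptor chain, went from 15.5 ± 0.714 to 34.1 ± 2.65 FPKM (SD, n = 3). The interleukin 10 gene did not pass the test, at 2.92 to 3.2 FPKM in the controls and 2.34 to 3.36 FPKM with hairpin 9. CXCR4 was called lower, by −0.27, but the call was lost whichever library was left out (adjusted p 0.079 to 0.109). It was also lost with a replicate block (0.11) or with all 9 fitted (0.131).

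Among NF-kB subunits, inhibitors and targets 13 of 30 rose and 3 fell, where 7.39% and 3.95% of all genes did. The median was 0.23, and 10 to 14 rose when 1 library was left out. The 3 that fell were CCND2, BIRC3 and BCL2A1, of which 1 was called without any 1 control or hairpin 9 replicate 2. NFKBIA, the classical inhibitor and itself a target, read 79.9, 81.1 and 86.3 FPKM in the controls and 115, 117 and 135 FPKM with hairpin 9, a rise of 0.56. NFKBIE rose by 0.64, the homing receptor CCR7 by 0.57 and CD83 by 0.64. Of 31 B-cell receptor and MYD88 genes 7 rose and 2 fell, where 7.39% and 3.95% of all genes did. Their median was 0.06, against 0.02 over all genes. With the replicate number as a block 1 rose and 1 fell. Without hairpin 9 replicate 2 the counts were 3 and 1, and 4 rose without control replicate 3. The phosphatase PTPN6, a brake on receptor signalling, went from 48.6 ± 2.75 to 76.3 ± 5.67 FPKM (SD, n = 3). FYN, a SRC family kinase, fell by 0.65. SYK and CD79B, the central kinase and a receptor chain, changed by 0.05 and 0.06 and did not pass the test.

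**Figure D2:**
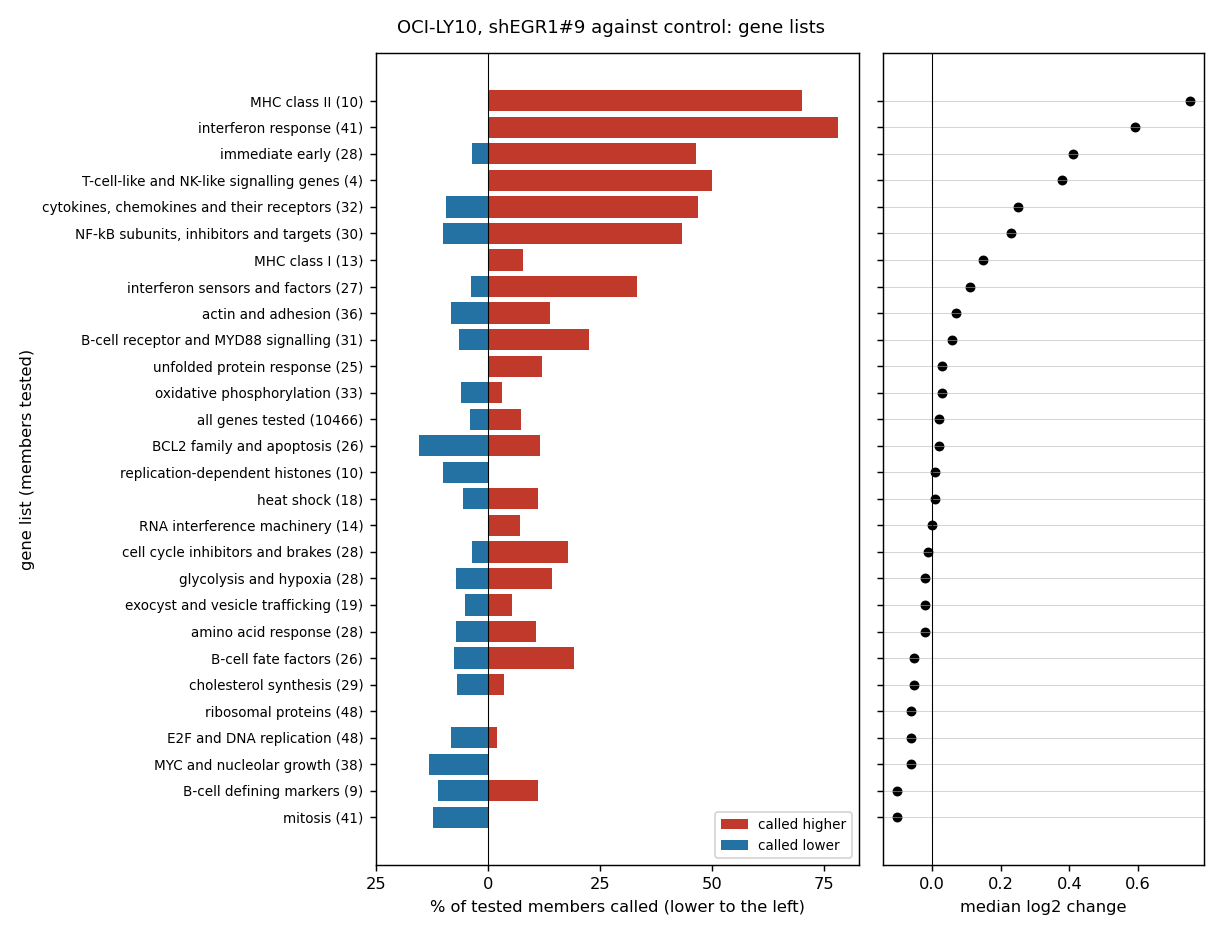
Left, percentage of the tested members of each list called higher (to the right) or lower (to the left), with members tested in brackets and all genes tested as 1 row. Right, the median log2 change, which is 0.75 for MHC class II, 0.59 for the interferon response and 0.02 for all genes tested.

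The lists of mitosis, DNA replication and MYC-driven growth had about the share of calls of all genes (11.3%), nearly all of them lower, where 3.95% of all genes fell. In mitosis 0 of 41 tested genes rose and 5 fell (TOP2A, NUF2, BIRC5, SMC4 and HMMR; median −0.10). The 5 became 0 without hairpin 9 replicate 2, to 1 without control replicate 2 or 3 or hairpin 9 replicate 3, and to 2 without control replicate 1. Of 48 E2F and DNA replication genes 1 rose and 4 fell (median −0.06), and only 1 fell without control replicate 1 or 3 or hairpin 9 replicate 2 and 2 without control replicate 2 or hairpin 9 replicate 3. Of 38 MYC and nucleolar growth genes 0 rose and 5 fell (median −0.06), and 3 fell without any 1 control or hairpin 9 replicate 2. The 5 that fell were PTMA, PPAT, LDHA, TFRC and MRTO4, while NPM1 changed by −0.22 without passing the test. Ribosomal protein genes were 48 in number, of which 0 rose and 0 fell (median −0.06). MKI67, a proliferation antigen, stood at 54.1 to 62.3 FPKM in the controls and 52.9 to 62.9 FPKM with hairpin 9.

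Genes of cell cycle control were called in both directions. CDKN1A, which encodes the CDK inhibitor p21, read 25.2, 23.3 and 21.7 FPKM in the controls and 44.5, 48.2 and 50 FPKM with hairpin 9, a rise of 0.99 (SE 0.0687, limma adjusted p = 0.000783). SKP2, the ligase subunit that marks p27 for destruction, read 11.4, 11.2 and 10.8 FPKM against 5.84, 5.77 and 5.68 FPKM, a fall of −0.84 (SE 0.0452, adjusted p = 0.000658). CDKN1B, which encodes p27, changed by 0.06 and did not pass the test. Groups did not overlap for CDKN1A or SKP2, as in every called gene. Of 28 tested inhibitors and brakes 5 rose and 1 fell, with a median of −0.01, where 7.39% and 3.95% of all genes rose and fell. The risers were 3 without any 1 library except control replicate 2. BTG2 rose by 0.49 and PLK3 by 0.64.

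The genes that fell most were of varied function. EXOC5, a subunit of the exocyst, read 21.8, 24.3 and 22.6 FPKM in the controls and 10.2, 9.67 and 8.89 FPKM with hairpin 9, a change of −1.17 (SE 0.0658, limma adjusted p = 0.000679). Of 19 tested exocyst and vesicle genes it was the only one that fell, and VAMP3 rose by 0.37. TAF9B, a subunit of the general transcription factor TFIID, read 16.2, 17.5 and 17.8 FPKM against 8.77, 7.95 and 7.9 FPKM. WASF2, a subunit of the WAVE complex that drives actin branching, read 51.5, 51.8 and 51.9 FPKM against 28.2, 29.2 and 28.8 FPKM. Its standard deviation was 0.183 FPKM in the controls and 0.492 FPKM with hairpin 9, and the scaffold IQGAP1 fell by 0.70. Of 36 tested actin and adhesion genes 5 rose and 3 fell, where 7.39% and 3.95% of all genes did. Without any 1 control or hairpin 9 replicate 2, 0 of them rose. PTMA, the abundant acidic chromatin protein prothymosin alpha, was at 2121, 2228 and 2211 FPKM against 1113, 1259 and 1342 FPKM. NBN, of the DNA double-strand break complex MRN, fell by 0.79, UBR7 by 0.78 and SYPL1 by 0.76. In all of these the groups did not overlap, as in every called gene, and each call was kept when any 1 library was left out.

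Several of the largest values belong to gene models that share sequence. TMEM110 was listed at 0 in the 3 controls and at 5.86, 5.45 and 5.55 FPKM with hairpin 9. The overlapping model TMEM110-MUSTN1 read 5.27, 5.23 and 4.8 FPKM in the controls and 0.679, 0.098 and 1.02 FPKM with hairpin 9, and in hairpin 8 replicate 2 the former was again at 0 and the latter at 5.71 FPKM. RAB43 read 4.94, 4.79 and 2.21 FPKM in the controls and 0.0689 to 0.236 FPKM with hairpin 9, and it overlaps ISY1-RAB43. NPIPA3, of a multicopy family, read 0 to 0.44 FPKM against 2.37 to 2.92 FPKM. MIR1244-2 overlaps a PTMA pseudogene, and MIR3153, MIRLET7D and MIR6820 overlap other annotated genes and read 1.07 to 1.8 FPKM in the controls. These values are uncertain, since reads of such models can be assigned to either. TMEM110 and NPIPA3 passed the filter on low values only through the hairpin 9 libraries. RAB43, MIR3153, MIRLET7D and MIR6820 passed it only through the controls. None of them could be refitted without a library of the group that carried it. The calls of MIR1244-2 (without control replicate 1 or 3 or hairpin 9 replicate 3, limma adjusted p 0.0641 to 0.0757) and of MIR3153 (without hairpin 9 replicate 2 or 3, 0.0942 to 0.0962) were lost, and with all 9 libraries fitted those of MIRLET7D (0.218) and TMEM110-MUSTN1 (0.128) were lost. A replicate block ended the calls of MIR1244-2 (adjusted p 0.0784), MIR3153 (0.0839) and MIRLET7D (0.0639). Of uncharacterised loci, LOC728554 fell by 1.24 and LOC101927931 rose by 1.16. Of 213 tested short RNA genes 4 rose and 8 fell, where 7.39% and 3.95% of all genes tested did.

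Over all genes, 773 rose and 413 fell, together 11.3% of those tested, and 3159 had an unadjusted p under 0.05. The changes were small: the median size among called genes was 0.34 on the log2 scale, 948 of 1186 were under 0.5, and 24 reached 2-fold (19 higher and 5 lower). Risers made up 65.2% of calls, 55.8% with median-ratio scaling and 51.3% with quantile normalization, under which the median of all genes fell by 0.021 and 0.037. The number called was 559, 583 and 467 without control replicate 1, 2 and 3, and 965, 409 and 682 without hairpin 9 replicate 1, 2 and 3. Of these, 530, 547, 451, 798, 395 and 636 were among the 1186. By level, 6.54% of genes with a mean under 2 FPKM were called, against 12.5% of those between 10 and 50 FPKM.

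**Figure D3:**
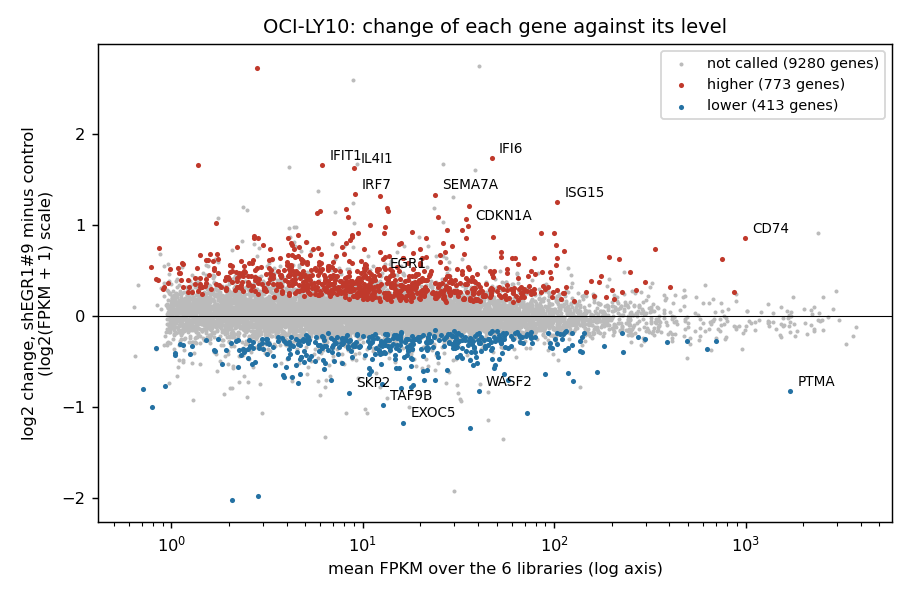
log2 change between hairpin 9 and control against mean FPKM (log axis) for the 10466 tested genes, with the 773 called higher in red and the 413 called lower in blue. Most calls lie within 0.5 of 0, and some large grey values are genes uneven within a group.

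Other changes fell outside these groups. HSPB1, a small heat shock protein, read 24.6, 21.2 and 17.2 FPKM in the controls and 40.1, 46.8 and 64.2 FPKM with hairpin 9. It rose by 1.21 (limma adjusted p = 0.012), a call lost with a replicate block (adjusted p = 0.0604). Of 18 tested heat shock genes 2 rose and 1 fell. Over all genes tested, 7.39% rose and 3.95% fell. HSPA8, the constitutive chaperone, changed by −0.09 and did not pass the test. LDHA, which makes lactate, fell by 0.36 and SCD, a fatty acid desaturase, by 0.63. CTH, of cysteine synthesis, fell by 0.67, and ATF4, which drives the amino acid response, changed by 0.02 without passing the test. Of 26 tested genes of the BCL2 family and apoptosis 3 rose and 4 fell, with a median of 0.02. Without control replicate 1 or 2 or hairpin 9 replicate 2, 2 rose and 0 fell. In the BCL2 family BIK, a killer, rose by 0.56 and BCL2L1, a survival gene, by 0.34, while BCL2A1 was called lower, as given above. BCL2, MCL1 and BCL2L11 changed by 0.03, 0.01 and 0.02 and did not pass the test. SYNGR2, a vesicle protein, was among the most abundant risers, at 271, 251 and 234 FPKM against 397, 428 and 440.2 FPKM.

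Calls in the other lists went mostly both ways, and several counts moved when 1 library was left out. In glycolysis and hypoxia 4 of 28 rose and 2 fell (median −0.02), against 11.3% called either way over all genes. There 2 rose without hairpin 9 replicate 2, and 1 fell without any 1 library except hairpin 9 replicate 3. ADM, a vasodilator peptide gene, was at 3.27, 3.31 and 2.08 FPKM in the controls and 5.89, 5.63 and 5.36 FPKM with hairpin 9, a call lost without hairpin 9 replicate 2 (limma adjusted p = 0.0557). SLC16A3, a lactate exporter, rose by 0.65, and SLC2A1, a glucose importer, changed by −0.09 without passing the test. In the unfolded protein response 3 of 25 rose and 0 fell (median 0.03), and 1 rose without any 1 control or hairpin 9 replicate 2. HERPUD1, of endoplasmic reticulum degradation, read 147 to 150.3 FPKM in the controls and 200.2 to 205 FPKM with hairpin 9. In oxidative phosphorylation 1 of 33 rose and 2 fell, in cholesterol synthesis 1 of 29 rose and 2 fell, and in the amino acid response 3 of 28 rose and 2 fell, with medians of 0.03, −0.05 and −0.02. Without any 1 control or hairpin 9 replicate 2 the oxidative phosphorylation counts were 0 and 0, and 0 fell without hairpin 9 replicate 3. Cholesterol synthesis had 1 faller whichever library was left out and 0 risers without control replicate 1 or 3 or hairpin 9 replicate 2. The amino acid response had 2 risers without control replicate 1 and 1 without any other library, and 1 faller without control replicate 1 or 2 or hairpin 9 replicate 2. Of 10 tested histone genes 1 fell, HIST1H1C, a linker histone, at 199.6, 213 and 191 FPKM against 136, 136 and 122 FPKM.

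Lineage genes gave a mixed picture. CD79A, a receptor chain, went from 591 ± 65.3 to 916 ± 102 FPKM (SD, n = 3), a rise of 0.63, and leaving out control replicate 2 or 3 or hairpin 9 replicate 2 ended that call (limma adjusted p 0.0515 to 0.056). MS4A1, which encodes CD20, fell by 0.25, and its call ended when the same libraries were left out in turn (adjusted p 0.0611 to 0.0776). A replicate block ended both calls (0.0639 for CD79A and 0.0747 for MS4A1), and fitting all 9 libraries ended that of MS4A1 (0.213). PAX5 was uneven within groups, at 22.5, 21.9 and 89.6 FPKM in the controls and 88.4, 22.7 and 19.9 FPKM with hairpin 9. Of 26 tested B-cell fate factors 5 rose and 2 fell (median −0.05), where 7.39% and 3.95% of all genes did. With 1 library left out, 0 to 3 rose and 1 to 2 fell. SPI1, SPIB, ID3 and BATF3 rose, but each call was lost without some single library. ELL3 fell, and its call was kept whichever library was left out. BCL6 and IRF4, factors of the germinal centre and of plasma cell fate, changed by 0.15 and −0.14 and did not pass the test. The summed level of T-cell and natural killer genes was 35.9 to 40.7 FPKM in the controls and 53 to 59.8 FPKM with hairpin 9, with CD247, a chain of T-cell and Fc receptors, at 11.6 to 15.5 and 21.8 to 24.3 FPKM. Myeloid markers summed to 0.674 to 1.17 and 1.9 to 2.07 FPKM, nearly all CD68. Their part in the changes was not tested.

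Between hairpin 9 and hairpin 8 in the same line, limma called 0 of 10612 tested genes, with 267 at an unadjusted p under 0.05. The lowest adjusted p was 1. Without hairpin 8 replicate 1 or 2 it called 9 and 8 genes, and without each hairpin 9 library 1, 1 and 2. With the replicate number as a block it called 0 as well. Both hairpins are compared with the same controls, so their agreement is not independent. IFI6 read 83.5, 50.3 and 88.8 FPKM with hairpin 8, EXOC5 10, 11 and 7.42 FPKM and CDKN1A 47.3, 47.3 and 55 FPKM. Hairpin 9 minus hairpin 8 was 0.01 for IFI6 (SE 0.204), 0.03 for EXOC5 (SE 0.122) and 0.31 for OASL (SE 0.081). That nothing passed does not show that the hairpins act alike.

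The TMD8 and SUDHL2 labels have 1 library a group, so their values have no replicate check. Of the 773 risers, 544 (70.4%) were above the median gene in TMD8 and 601 (77.7%) in SUDHL2, where 50% and 47.1% of all genes were. Of the 413 fallers, 304 (73.6%) and 293 (70.9%) were below it, where 50% and 49.6% of all genes were. Of the 41 interferon genes 36 and 40 were above it, with medians of 0.83 and 0.82. Of the 10 MHC class II genes 7 and 5 were above it, with medians of 0.03 and 0.08, and HLA-DRA was listed at 0 in both lines. IFI6 was 1.77 FPKM with the control and 10.3 FPKM with hairpin 9 in TMD8, and 35.2 and 77.2 FPKM in SUDHL2. EXOC5 was 21.9 and 4.37 FPKM in TMD8, and 10.6 and 3.15 FPKM in SUDHL2. EGR1 was 7.31 and 9.95 FPKM in TMD8 and 17 and 15.4 FPKM in SUDHL2. Short RNA genes took 36.3% of the FPKM in the TMD8 control library and 58% in its hairpin 9 library, 54.4% and 50.4% in SUDHL2, and 0.463 to 0.606% in OCI-LY10. Their part in these values was not tested.

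**Figure D4:**
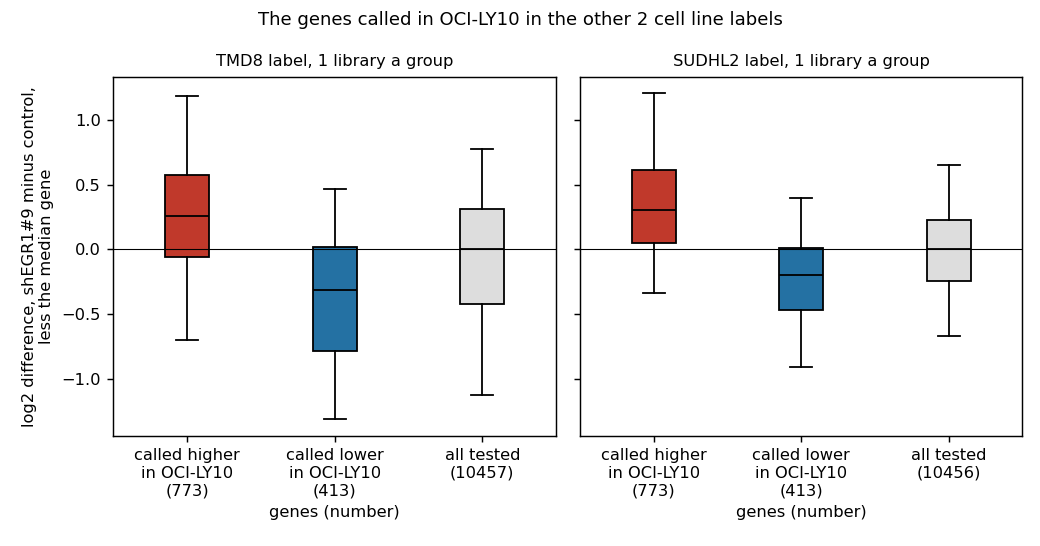
Boxes (quartiles, with whiskers over the central range) of the log2 difference between hairpin 9 and control under the TMD8 and SUDHL2 labels, less the median gene. Medians are 0.26 and 0.30 for OCI-LY10 risers and −0.31 and −0.20 for fallers.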

How the data were processed

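RNA libraries were made with a TruSeq kit, per the labels' protocols. The tools StringTie, HISAT and Bowtie2 and the build hg19 are named per the submitters' processing notes, while for roles, versions, annotation and filters nothing is stated there. The deposited values were read as FPKM from the values, since no label or header names the unit. Read totals are unknown: among genes under 0.08 FPKM, 23 to 35.8% gave small whole-number ratios between libraries (at most 4, to within 0.01 log2), and 1 fragment was worth −0.37 to 0.285 log2 of its worth in control replicate 1.

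Values were taken as log2(FPKM + 1), which understates changes of low genes, and fitted with limma 3.58.1 (R 4.3.3, mean-variance trend, Benjamini-Hochberg adjustment, called at 0.05), 3 against 3 libraries. The fit of hairpin 9 against hairpin 8 instead held all 9 OCI-LY10 libraries. Changes are log2 differences. Each table may carry its own normalization, and no test spans more than 1 table. In simulated data of 10384 genes, 84% of changes of 0.5 and 93% of changes of 1 log2 were recovered, and 3.8% of calls were false. Changes were placed only in genes with a mean log2(FPKM + 1) above 3, with independent normal noise. Recovery in lower genes was not tested, and the false share among the real calls may differ. Lines with repeated names (4 in OCI-LY10, 8 in TMD8 and 10 in SUDHL2) and 1 non-numeric TMD8 line were left out, and 430 lines of the SUDHL2 table that run on from TMD8 were left out.

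Members, the 31 gene lists and tests were chosen with earlier results of these data known. Lists share members, such as CCL3, CCR7, BTG2 and MYD88, and a shared gene is counted in each. Named were the 15 largest risers and fallers without overlap, up to 5 called members of each list with fixed extra genes, every called member of a list with 3 or fewer, the 10 most abundant called genes and up to 5 genes each way between hairpins. Members of counts of 5 or fewer outside this rule were named after their values were seen. Some genes that the rule names are not reported here. Same-numbered hairpin 8 and hairpin 9 libraries correlated at 0.178, 0.114 and 0.256 in their deviations from the group means. Differently numbered ones ran from −0.27 to 0.145, so the ranges overlap. A pairing by number is not stated in the labels and was not tested. Promoters came from RefSeq (GRCh38.p14). Alternatives were a pseudocount of 0.1, no filter, median-ratio scaling, quantile normalization, array weights, a replicate block, all 9 OCI-LY10 libraries and leaving out each library. Tables were handled in pandas 2.3.3 and numpy 2.4.6 and plots drawn in matplotlib 3.10.9, under Python 3.11.15. Of 15 mitochondrially encoded RNAs 0 were in the table.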

Additional observations from a re-analysis of the deposited data

Results flagged for a closer look

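For 4 of the most changed genes of OCI-LY10, the differences in both other lines lay on the opposite side of the median gene. They rest on 1 library a group, and in TMD8 those of HLA-DRB1 and LOC101927931 were close to no change. The difference between lines was not tested. WASF2, which fell in OCI-LY10, was at 0.16 in TMD8 and 0.15 in SUDHL2 on the log2 scale. RAB43, which also fell, was at 0.48 and 0.56. HLA-DRB1, a riser, was at −0.08 and −0.30, and LOC101927931, also a riser, at −0.02 and −0.55. HLA-DRB1 was at most 0.23 FPKM in both lines, and HLA-DRB1 and RAB43 share sequence with other genes.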

How the results depend on the processing

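Of 123 called named genes 62 kept their call in every setting and 0 changed direction. Genes that passed the filter only through a single group were not fitted without a library of that group. The count of 1186 (773 higher, 413 lower) was 379 (262 and 117) with a replicate block and 546 (379 and 167) with all 9 libraries in the fit. Leaving out 1 library gave 409 to 965 (271 to 637 higher, 138 to 328 lower). Fewer libraries were fitted there, and the cause of the other shifts was not tested. Same-numbered control and hairpin 9 libraries correlated at −0.112, 0.029 and −0.074 in their deviations from the group means. Differently numbered ones ran from −0.043 to 0.127, and whether the numbers pair the libraries was not tested. The 0 genes between hairpins became 1 with no filter and 0 to 9 with 1 library left out. The depth of a library is known only relative to the others, so no counting interval can be given.

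Genes that did not pass the test changed sign as follows. With median-ratio scaling ATF4, BCL2L11, DICER1 and MCL1 were at −0.01 and MYC at −0.02. With quantile normalization BCL2L11 was at −0.02, DICER1 at −0.04, MCL1 at 0.00 and MYC at −0.01. With array weights DICER1 was at −0.01 and MYC at −0.03. With 1 library left out, the lowest and highest values were −0.02 and 0.05 for BCL2L11, −0.08 and 0.01 for CD86, −0.01 and 0.13 for CDKN1B, −0.03 and 0.06 for DICER1, −0.07 and 0.03 for E2F1, −0.11 and 0.08 for IL10, −0.02 and 0.05 for MCL1, −0.12 and 0.01 for MKI67, −0.07 and 0.06 for MYC, −0.02 and 0.01 for NDUFS1 and −0.72 and 0.61 for PAX5.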
